A study of Homo sapiens with 6 samples.

Results

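The type I interferon response genes described here are a set of 37 genes that interferon is known to induce in most cell types, followed in DLD1 cells that express a short hairpin RNA (shRNA) against CDKL1 and in DLD1 cells that express a control shRNA. DLD1 is an established human colorectal adenocarcinoma line, and CDKL1 belongs to a family of protein kinases related to the cyclin-dependent kinases. Cells process a short hairpin RNA into a small RNA that guides the destruction of transcripts with the matching sequence. Both groups had received shRNA by lentivirus, each group held 3 samples, and each sample was hybridised to 1 Affymetrix array, so 6 arrays were compared and no uninfected cells were among them. The sources used here give neither the hairpin sequences, nor their number, nor the time after infection. RNA was taken from the whole culture, so a change in fewer cells and a smaller change in every cell cannot be told apart. Each gene was read from the probe set with the highest mean over the 6 arrays among probe sets annotated to that gene alone. By this rule 35 of the 37 genes were measured, out of 18132 genes in all, and the set was named with earlier results of these data known. USP18, whose product removes ISG15 from proteins, had only a probe set annotated to several genes and was not used, and STAT2 was not analysed here.

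Type I interferons are secreted proteins that cells make after sensing foreign or misplaced nucleic acid. They bind the receptor chains IFNAR1 and IFNAR2, the kinases JAK1 and TYK2 then activate STAT proteins, and a complex that contains STAT2 and IRF9 binds a short promoter element, the interferon-stimulated response element. The induced proteins block viral entry, translation and replication, and several of them, such as IRF7, IFIH1 and EIF2AK2, are also parts of the sensing and signalling machinery itself.

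The core of the response element was searched in the RefSeq promoters of assembly GRCh38.p14, from 250 bases before to 50 bases after each listed start, as the letters GAAA, any 2 bases and again GAAA, on either strand. At least 1 promoter was listed for 30 of the 37 genes, and 21 of these 30 (70.0%) held the core, against 1195 of 27305 genes (4.38%) with a promoter in the table. The longer form, with CT after the second GAAA, was found in 15 of the 30 genes and in 0.322% of all genes. The stretches below are shown because the genes that follow them rose (ISG15, ISG20, SAMD9), were lower on the probe set used (HERC5, DDX60, IFIT1, RSAD2) or did not pass the test (BST2, IFI27), although each carries the core. They run 5′ to 3′ in the direction of the gene, end before its start, and have the bases of every match in capitals, so a core on the other strand reads as TTTC, any 2 bases and TTTC, and overlapping matches form 1 run.
ISG15 (chr1:1013349-1013434, plus strand): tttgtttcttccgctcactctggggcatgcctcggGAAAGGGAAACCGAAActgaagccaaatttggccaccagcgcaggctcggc
ISG20 (chr15:88638912-88638991, plus strand): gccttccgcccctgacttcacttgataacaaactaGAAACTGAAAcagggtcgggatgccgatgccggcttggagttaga
SAMD9 (chr7:93118071-93118150, minus strand): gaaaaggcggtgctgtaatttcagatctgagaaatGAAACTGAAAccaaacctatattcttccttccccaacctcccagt
HERC5 (chr4:88456959-88457089, plus strand): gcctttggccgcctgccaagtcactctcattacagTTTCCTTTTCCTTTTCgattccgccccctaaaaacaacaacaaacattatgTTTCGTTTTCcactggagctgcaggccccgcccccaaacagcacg
DDX60 (chr4:168318761-168318875, minus strand): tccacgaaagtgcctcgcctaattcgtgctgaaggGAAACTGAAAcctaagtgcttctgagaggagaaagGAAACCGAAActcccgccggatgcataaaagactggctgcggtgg
IFIT1 (chr10:89392472-89392564, plus strand): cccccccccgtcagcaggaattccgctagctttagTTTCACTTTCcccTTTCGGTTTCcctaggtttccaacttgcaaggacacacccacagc
RSAD2 (chr2:6877597-6877676, plus strand): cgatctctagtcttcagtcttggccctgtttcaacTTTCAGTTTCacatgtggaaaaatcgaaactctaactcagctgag
BST2 (chr19:17405710-17405795, minus strand): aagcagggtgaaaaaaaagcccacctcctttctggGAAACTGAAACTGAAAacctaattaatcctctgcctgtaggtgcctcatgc
IFI27 (chr14:94110593-94110685, plus strand): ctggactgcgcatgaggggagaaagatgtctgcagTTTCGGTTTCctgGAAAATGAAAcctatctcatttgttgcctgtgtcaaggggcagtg

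The core was present in 4 of the 5 genes with a listed promoter that rose, in 4 of 4 that were lower, RSAD2 with its unsettled direction included, and in 13 of 20 that did not pass. RSAD2 has a pair of listed starts, of which 1 holds the core, and in EIF2AK2, which also rose, the match reaches past the start and is not shown. IRF9 was the gene that rose without the core in its listed window. Over all genes measured here that have a listed promoter, 10.0% of the 599 with the core and 9.41% of the 13826 without it were higher, while 7.01% and 7.98% were lower, and the median log2 change was -0.01 in both sets. With the longer form, 11.3% of 53 measured genes were higher and 13.2% lower, against 9.43% and 7.92% of the 14372 without it. The 53 include 15 of the interferon response genes, and this difference was not tested. A match of these letters is a description of the window and not a measured binding site.

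CDKL1 shRNA was accompanied by rises of some interferon response genes and falls of others, with most of the set not passing the test. ISG15, the ubiquitin-like modifier, was 1.54-fold higher and ISG20, an exonuclease that degrades single-stranded RNA, was 1.53-fold higher. IFIT2, IRF7, EIF2AK2, IRF9 and SAMD9 rose by less, and HERC5, IFIT1 and DDX60 fell. RSAD2 passed as lower on the probe set used, but its other probe set went the opposite way. In all, 11 of the 35 measured genes had an adjusted p under 0.05 in limma, with Benjamini-Hochberg adjustment over all 18132 genes, 31.4% of the set against 16.8% of all genes. Of them 7 were higher (20.0%, against 8.97% of all genes) and 4 were lower (11.4%, against 7.79%), while 24 did not pass. A fold of at least 1.5 was reached by 2 of the passing genes, both higher, against 1.2% of all genes in either direction and 0.689% higher. An unadjusted p under 0.05 was found for 14 of the 35, against 29.8% of all genes. The median log2 change of the 35 genes was 0.05, against -0.01 for all genes. It was -0.0028 without CDKL1 shRNA replicate 2 and 0.0098 with probe sets averaged, so its sign was not settled. The median size of change regardless of sign was 0.11, against 0.09. The count of 11 was 7 without CDKL1 shRNA replicate 3 and 8 or 9 without any other array. The share of all genes that passed also fell in these fits, from 16.8% to between 9.01% and 13.2%.

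**Figure D1:**
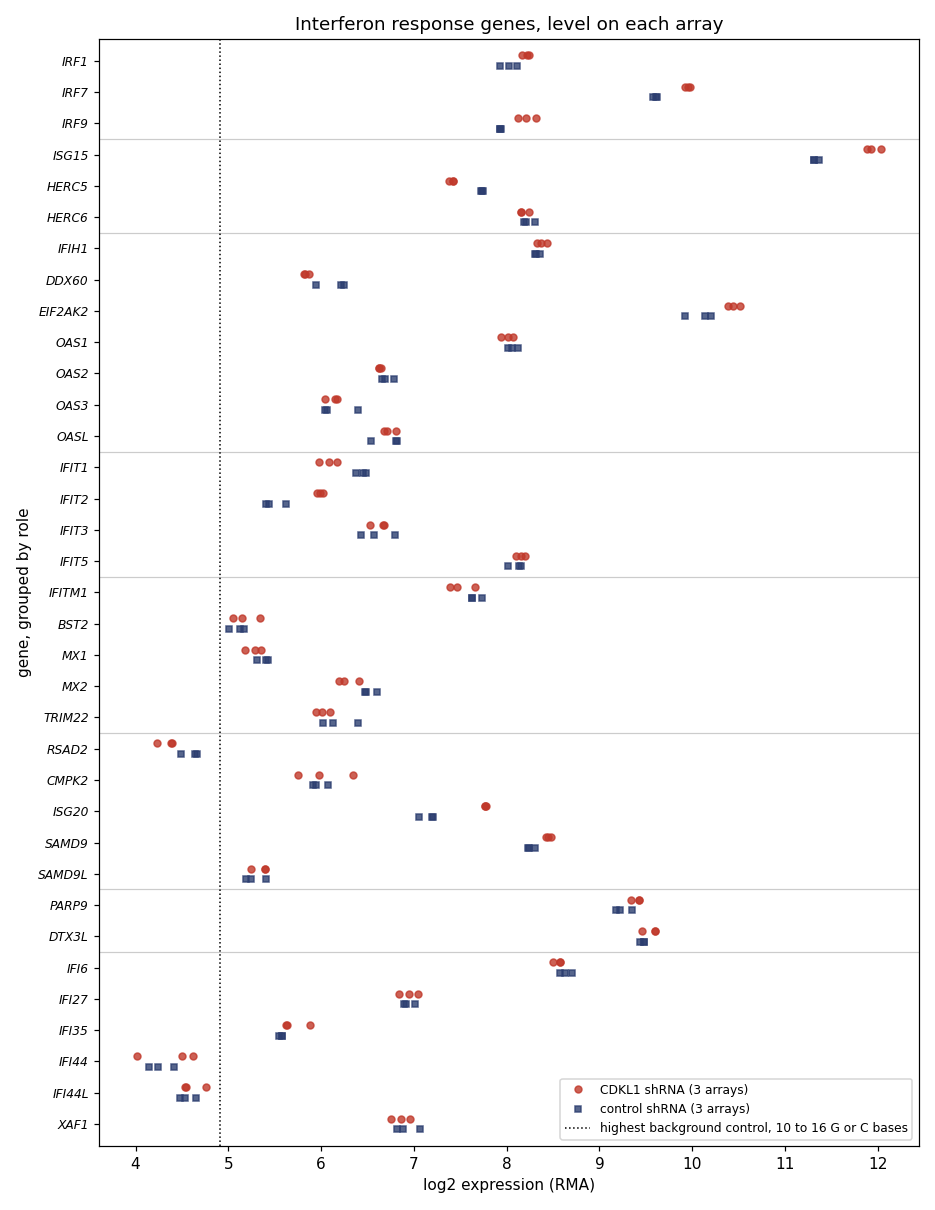
Log2 expression (RMA, horizontal axis) of the 35 measured interferon response genes, grouped by role, with 1 point per array: red circles for the 3 CDKL1 shRNA arrays and blue squares for the 3 control shRNA arrays. The dotted line at 4.92 is the background limit, the brightest mean among control probe sets that match no transcript and hold 10 to 16 G or C. ISG15 and ISG20 show the widest gap between the groups, and RSAD2, IFI44 and IFI44L lie left of the line.

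Facts of the whole comparison bear on these values. Array medians lay between 6.64 and 6.70. CDKL1 itself averaged 4.17 ± 0.09 in CDKL1 shRNA arrays and 4.37 ± 0.18 in control arrays (log2, SD, n = 3 each), under the background limit defined below, and its log2 change of -0.19 did not pass (limma, adjusted p = 0.219), so it gives no check of the knockdown, and the group names rest on the labels. A sign of RNA quality, the excess of the 3′ over the 5′ ACTB control probe set, was 1.60 ± 0.11 in CDKL1 shRNA arrays and 1.40 ± 0.01 in control arrays (log2, SD, n = 3 each), and an exact permutation test (two-sided) gave p = 0.1, the smallest that 3 arrays against 3 allow. The same excess for GAPDH was 0.27 ± 0.03 in CDKL1 shRNA arrays and 0.20 ± 0.02 in control arrays (exact permutation p = 0.1). The ACTB excess read 1.52, 1.73 and 1.55 in the CDKL1 shRNA arrays and 1.40, 1.41 and 1.39 in the control arrays, so it moved with the groups. Its part in the results cannot be told apart from that of the shRNA, also not by the covariate fit given further on. Of 14 epithelial marker genes all lay above the background limit, EPCAM (a surface glycoprotein of epithelial cells) at 13.5 in each group. Among these markers KRT20, a keratin of mature colonocytes, changed by 0.52 (adjusted p = 0.000746), the tight junction gene CLDN3 by 0.33 (adjusted p = 0.00601) and the brush border gene VIL1 by -0.57 (adjusted p = 0.019), whereas of the 11 fibroblast and endothelial markers 0 passed (limma), 0 at an unadjusted p under 0.05, and 4 were not above the limit. Of 14 measured leukocyte and plasmacytoid dendritic cell markers the pan-leukocyte gene PTPRC stood at 3.49 in CDKL1 shRNA arrays and 3.62 in control arrays, within the background range. The summed level of this marker list was 9.83 to 9.93 in CDKL1 shRNA arrays and 9.82 to 9.84 in control arrays (log2 of the sum), with 5 of 14 genes not above the limit. The list and its sum also hold the globin gene HBB, at 7.36 in CDKL1 shRNA arrays and 7.40 in control arrays. Of the macrophage genes in the list, CD68 (0.39, limma, adjusted p = 0.0171) and CD163 (0.65, adjusted p = 0.000772) rose. CD163 averaged 5.21 in CDKL1 shRNA arrays and 4.56 in control arrays, the latter under the limit. Other myeloid genes of the list did not pass, namely CD14 (-0.07), ITGAM (-0.04), ITGAX (-0.12) and LYZ (0.09). The part of these markers in the results below was not tested.

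The value table holds no detection calls, so levels were set against background control probe sets, which match no transcript. With 10 to 16 G or C among their bases, their means ran over the range 2.97 to 4.92, and 32 of the 35 genes had both group means above 4.92. The 3 that did not were RSAD2, IFI44 and IFI44L. Background control probe sets richer in G or C are brighter, up to 10.7 with 25 such bases, and ISG15 alone lay above all of them. The 10 such controls that hold 16 to 25 G or C were 0.07 to 0.21 lower in CDKL1 shRNA arrays on the log2 scale, and for 9 of them the groups did not overlap. These shifts have the same sign as the falls reported here and reach the size of the smaller ones, such as those of B2M and RNF135. The levels of IFIT1, DDX60 and the ligand gene IFNL1 lay near those of the controls with 17 to 20 G or C. These controls averaged 5.43 to 6.42 and changed by -0.11 to -0.19. B2M, which is not one of the 35 genes, averaged 12.0 and 12.2, above all background controls. The part of these shifts in the falls was not tested.

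Of the transcription factors of the response, IRF7 and IRF9 rose. IRF7, which drives the interferon genes themselves, read 9.93, 9.98 and 9.96 in the 3 CDKL1 shRNA arrays, against 9.62, 9.57 and 9.61 in the 3 control arrays. Every CDKL1 shRNA array was above every control array, and the log2 change was 0.35 (SE 0.04, limma, adjusted p = 0.00208), or 27.6% higher. IRF9, the DNA-binding subunit that joins the STAT proteins, read 8.12, 8.20 and 8.32 in CDKL1 shRNA arrays, against 7.93, 7.93 and 7.94 in control arrays. Its log2 change was 0.28 (SE 0.06, adjusted p = 0.0166), and the 3 dimmer probe sets of IRF9 also had positive changes, of 0.02 to 0.18, none of which passed over all probe sets. Averaged over its 4 probe sets IRF9 changed by 0.14 and did not pass (adjusted p = 0.0888), and it also did not pass without control replicate 2 or control replicate 3 (highest adjusted p = 0.0563). IRF1, a factor that interferon gamma induces strongly, had a log2 change of 0.19 that did not pass (adjusted p = 0.073), although its groups did not overlap. It passed without control replicate 1 (0.23, adjusted p = 0.0418) and with a trended prior (adjusted p = 0.0339).

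Of the genes of ISG15 conjugation, the modifier and its ligase moved in opposite directions. ISG15, which is attached to newly made proteins, read 11.88, 11.93 and 12.04 in CDKL1 shRNA arrays, against 11.36, 11.31 and 11.31 in control arrays. The gap between the groups exceeded the spread within either of them, with a log2 change of 0.62 (SE 0.05, adjusted p = 0.000624) and a 95% interval from 0.50 to 0.74. Its only probe set is of a kind that can bind related transcripts. HERC5, the main ligase that attaches ISG15 in human cells, read 7.42, 7.38 and 7.43 in CDKL1 shRNA arrays, against 7.74, 7.73 and 7.73 in control arrays. The 3 values of each group lay close together and apart from the other group, and the log2 change was -0.32 (SE 0.04, adjusted p = 0.00255). HERC6, its neighbour and close relative, had a log2 change of -0.05 with an interval from -0.17 to 0.07.

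Among genes of double-stranded RNA sensing, 1 rose, 1 fell and 5 did not pass. EIF2AK2, which encodes the kinase PKR that halts translation on binding double-stranded RNA, read 10.39, 10.44 and 10.51 in CDKL1 shRNA arrays, against 9.93, 10.20 and 10.13 in control arrays. Its groups did not overlap, and the log2 change was 0.36 (SE 0.08, adjusted p = 0.0195). The other probe set of EIF2AK2 gave 0.09 (adjusted p = 0.326 over all probe sets), and the gene did not pass without CDKL1 shRNA replicate 2 or CDKL1 shRNA replicate 3 (highest adjusted p = 0.0733). DDX60, a helicase linked to RNA sensing, read 5.82, 5.86 and 5.81 in CDKL1 shRNA arrays, against 6.25, 6.21 and 5.95 in control arrays. Control replicate 3 lay near the CDKL1 shRNA arrays, and the log2 change was -0.30 (SE 0.08, adjusted p = 0.0439). DDX60 passed in 1 of the 6 fits with an array left out, that without control replicate 3, with a log2 change of -0.40 (adjusted p = 0.0082). IFIH1, which encodes the long double-stranded RNA sensor MDA5, had a log2 change of 0.05 with an interval from -0.06 to 0.16. The oligoadenylate synthetase genes, whose products lead to activation of the ribonuclease RNase L, had changes of -0.06 for OAS1, -0.08 for OAS2 and -0.05 for OAS3. The related gene OASL gave 0.01. The adjusted p of the OAS genes and OASL ran from 0.332 to 0.955.

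The IFIT genes, whose products bind foreign RNA ends and block translation, lie in a single cluster and had unlike changes. IFIT2 read 5.99, 5.95 and 6.02 in CDKL1 shRNA arrays, against 5.62, 5.41 and 5.44 in control arrays. It rose 1.41-fold, a log2 change of 0.50 (SE 0.06, adjusted p = 0.00279), while its other probe set, within the background range, gave 0.11 and did not pass. IFIT1 read 6.09, 6.17 and 5.98 in CDKL1 shRNA arrays, against 6.48, 6.37 and 6.45 in control arrays. All 3 CDKL1 shRNA values were the lower ones, and the log2 change was -0.36 (SE 0.06, adjusted p = 0.00893), or 1.28-fold lower. IFIT3 had a log2 change of 0.02 and IFIT5 of 0.05, with intervals from -0.20 to 0.25 and from -0.08 to 0.18.

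**Figure D2:**
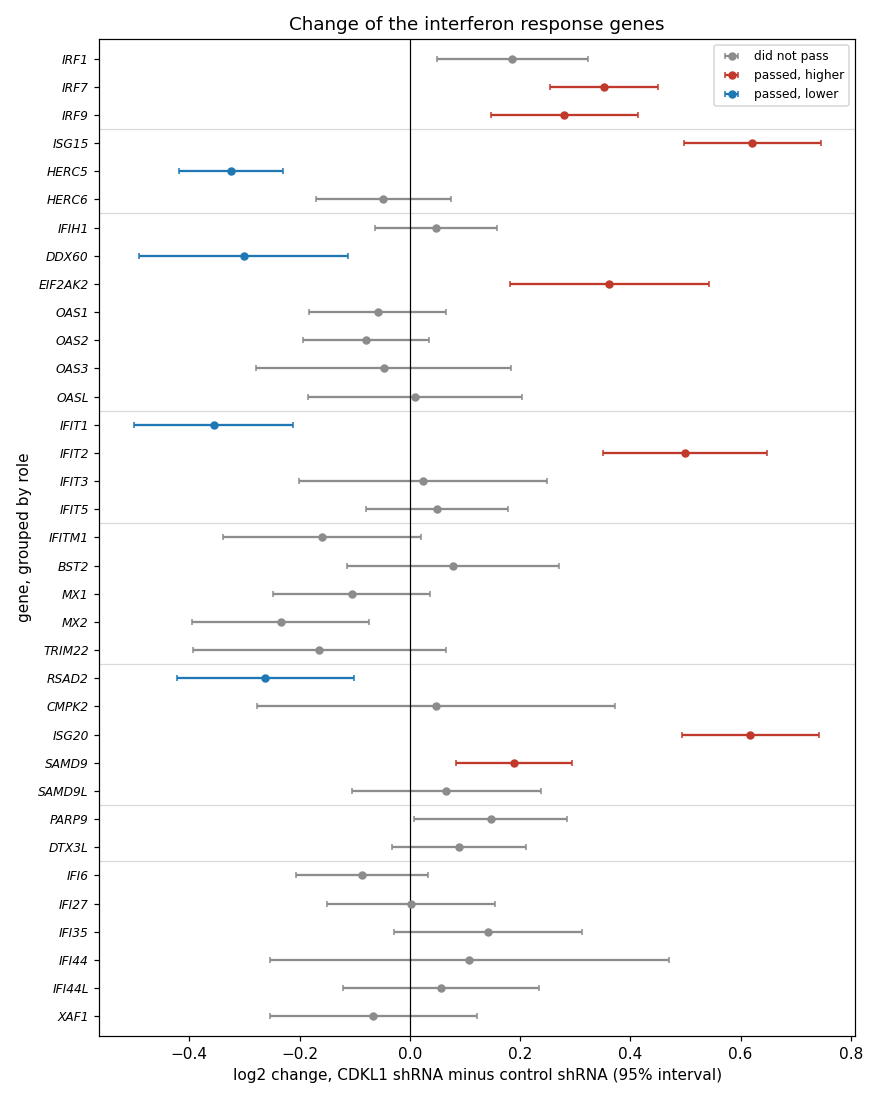
Log2 change (CDKL1 shRNA minus control shRNA, horizontal axis) of each measured interferon response gene with its 95% interval from limma, grouped by role. Red points passed and were higher, blue points passed and were lower, and grey points did not pass. IFIT1 and IFIT2 lie on opposite sides of 0, as do HERC5 and ISG15.

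The genes of restriction at membranes and capsids gave 0 passing members of 5 (limma), with 1 at an unadjusted p under 0.05. That gene was MX2, which encodes a GTPase that blocks retroviral capsids, and it read 6.25, 6.41 and 6.20 in CDKL1 shRNA arrays, against 6.48, 6.47 and 6.60 in control arrays. Its groups did not overlap, its log2 change was -0.23 (SE 0.07) and its adjusted p was 0.0577. MX2 was within the threshold without CDKL1 shRNA replicate 2 (adjusted p = 0.0319), with its 2 probe sets averaged (adjusted p = 0.0347) and with dim genes left out (adjusted p = 0.0402). MX1, the related GTPase widely used as a marker of interferon exposure, had a log2 change of -0.11 with an interval from -0.25 to 0.04. IFITM1, which hinders viral fusion, gave -0.16 and TRIM22, a ubiquitin ligase with antiviral activity, gave -0.16. BST2, which tethers budding virions, gave 0.08.

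Among genes of nucleotide and RNA metabolism ISG20 and SAMD9 rose, and RSAD2 was lower on 1 of its 2 probe sets. ISG20 read 7.77, 7.78 and 7.77 in CDKL1 shRNA arrays, against 7.06, 7.20 and 7.21 in control arrays. The CDKL1 shRNA values hardly differed from each other, and the log2 change was 0.62 (SE 0.05, adjusted p = 0.000631) with an interval from 0.49 to 0.74. SAMD9, which restricts poxviruses, read 8.42, 8.44 and 8.48 in CDKL1 shRNA arrays, against 8.24, 8.31 and 8.23 in control arrays. Its log2 change of 0.19 (SE 0.04, adjusted p = 0.0294) was within the threshold in 1 of the 6 fits with an array left out, that without control replicate 2, and the highest adjusted p was 0.104. RSAD2, which encodes the antiviral enzyme viperin, read 4.23, 4.39 and 4.38 in CDKL1 shRNA arrays, against 4.64, 4.49 and 4.67 in control arrays. All these values lay under the background limit, and the log2 change was -0.26 (SE 0.07, adjusted p = 0.0401). The other probe set of RSAD2 went the opposite way, at 0.38 (adjusted p = 0.0361 over all probe sets), so the gene's direction was not settled. In that same limma fit over all probe sets, the probe set used did not pass (adjusted p = 0.0523). Without any 1 array RSAD2 passed only where control replicate 2 was left out (adjusted p = 0.0352). CMPK2, a nucleotide kinase gene next to RSAD2, gave 0.05 with an interval from -0.28 to 0.37, and SAMD9L, next to SAMD9, gave 0.07.

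The remaining genes did not pass. PARP9 and DTX3L, which encode an ADP-ribosyltransferase and a ubiquitin ligase that work as 1 complex, had log2 changes of 0.15 (adjusted p = 0.145) and 0.09 (adjusted p = 0.306). Of the IFI genes and XAF1, 0 of 6 passed (limma) and 0 had an unadjusted p under 0.05. IFI27, a mitochondrial protein gene that is among the strongest responders to interferon in blood, averaged 6.94 ± 0.10 in CDKL1 shRNA arrays and 6.94 ± 0.07 in control arrays (SD, n = 3 each), with a log2 change interval from -0.15 to 0.15. IFI6, an endoplasmic reticulum protein gene, gave -0.09, and IFI35, which encodes a partner of NMI, gave 0.14. IFI44 and IFI44L, whose levels were within the background range, gave 0.11 and 0.06, and XAF1, an antagonist of the apoptosis inhibitor XIAP, gave -0.07. Over the 24 genes that did not pass, the changes ran from -0.23 to 0.19 and the 95% intervals together from -0.39 to 0.47.

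**Figure D3:**
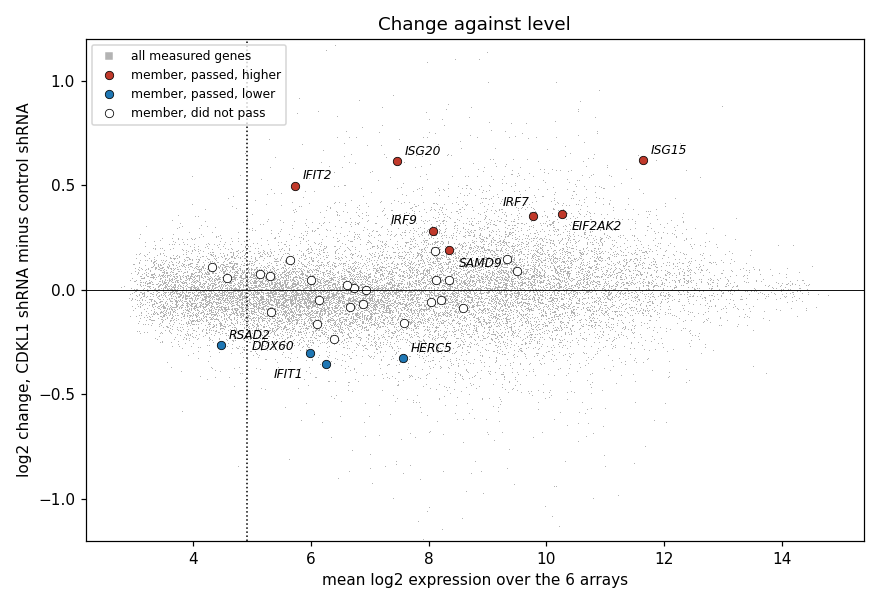
Log2 change (CDKL1 shRNA minus control shRNA, vertical axis) against the mean log2 expression over the 6 arrays (horizontal axis) for all 18132 genes (grey) and the 35 interferon response genes (circles, coloured by call). The dotted line marks the background limit of 4.92, and 15 genes lie beyond the vertical axis at ±1.2. Of the members that passed as lower, RSAD2 lies left of the line and none lies above a level of 8, whereas the members that rose run from IFIT2 to ISG15.

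Probe sets of the same gene did not always move alike. The 35 genes had 87 probe sets, 13 genes had 1 each, and in 10 of the 22 genes with several the signs were mixed. In the fit over all probe sets, 8 of the 87 probe sets of these genes were higher and 2 lower. The share over all probe sets was not taken, so these counts are a description only. The lower ones were those of HERC5 and IFIT1. The higher ones include the dimmer probe set of RSAD2, the one not used. Each of ISG15, ISG20, IRF7, SAMD9, HERC5, IFIT1 and DDX60 rests on 1 probe set.

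The groups did not overlap for 16 of the 35 genes (45.7%), against 35.7% of all genes. In CDKL1 shRNA arrays 9 of these genes lay above the control arrays and 7 lay under them. Of the 11 passing genes, 6 passed in each of the 6 fits with an array left out, namely ISG15, ISG20, IRF7, IFIT2, HERC5 and IFIT1. The other 5 were IRF9, EIF2AK2, DDX60, RSAD2 and SAMD9. When the ACTB 3′ excess of each array entered the fit as a covariate, 1.21% of all genes passed and ISG15 was the 1 member among them (log2 change 0.64, adjusted p = 0.0482). ISG20 gave 0.61 in that fit (adjusted p = 0.0531), IFIT2 0.55 (adjusted p = 0.093) and IFIT1 -0.47 (adjusted p = 0.0948). All 11 kept their sign, and the median SE of the 35 genes was 0.107 with the covariate and 0.0633 without it. Because the ACTB excess did not overlap between the groups, this fit cannot tell its part from that of the shRNA.

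**Figure D4:**
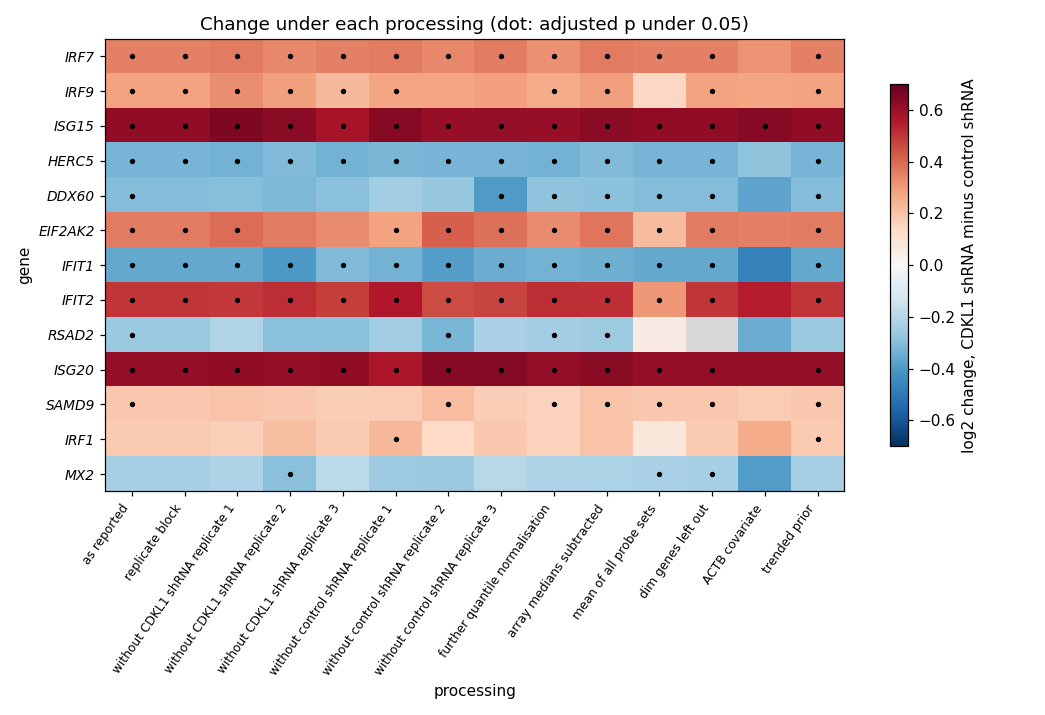
Log2 change (colour, CDKL1 shRNA minus control shRNA) of the 11 passing members and of IRF1 and MX2 under each processing, with a black dot where the adjusted p was under 0.05. RSAD2 was not tested with dim genes left out (grey), and turned positive with its probe sets averaged. ISG15 has a dot in every column.

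Genes of the set that neighbour each other within 100000 bases formed 14 pairs from 19 genes. Of these pairs 10 had changes of the same sign and 4 of opposite sign, and only IFIT1 and IFIT2 both passed and in opposite directions. The difference between their changes was -0.85 (IFIT1 minus IFIT2), and its values in the 3 CDKL1 shRNA arrays did not overlap those in the 3 control arrays. An exact two-sided permutation test gave p = 0.1, the smallest possible, and 0.28 after adjustment over the 14 pairs. The same p values were reached by HERC5 against HERC6 (-0.28), IFIT1 against IFIT3 (-0.38), IFIT1 against IFIT5 (-0.41) and IFIT2 against IFIT3 (0.47). This permutation test could not bring any pair under 0.05. PARP9 and DTX3L differed by 0.06 (exact permutation p = 0.4), OAS1 and OAS2 by 0.02 (exact permutation p = 0.8) and IFI44 and IFI44L by 0.05 (exact permutation p = 1).

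Upstream of these genes, the interferon ligands lay mostly at the background. Of 21 listed ligand genes 17 were measured, and 15 of the 17 had a mean over the 6 arrays at or under 4.92. IFNB1, the interferon that most cells release first, averaged 4.37 in CDKL1 shRNA arrays and 4.44 in control arrays, within the background range. The single ligand that passed was IFNL1, a type III interferon gene, which read 5.15, 5.29 and 5.22 in CDKL1 shRNA arrays, against 5.48, 5.54 and 5.52 in control arrays. Its log2 change was -0.29 (SE 0.05, adjusted p = 0.0102), and 0 ligands were higher (limma), none of them at an unadjusted p under 0.05 either. Alpha interferon genes are near-identical, so their probe sets can share signal.

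The chains of the type I receptor changed in opposite directions. IFNAR1 read 9.36, 9.11 and 9.18 in CDKL1 shRNA arrays, against 8.89, 8.96 and 8.96 in control arrays, a log2 change of 0.28 (SE 0.07, adjusted p = 0.0338), with 4 of 4 probe sets positive. IFNAR2 read 7.65, 7.80 and 7.86 in CDKL1 shRNA arrays, against 8.18, 8.18 and 7.97 in control arrays, a log2 change of -0.34 (SE 0.08, adjusted p = 0.0267), with 3 of 3 probe sets negative. In both genes the groups did not overlap, but with an array left out IFNAR1 passed in 1 of 6 fits and IFNAR2 in 2 of 6. IFNLR1, the specific chain of the type III receptor, rose by 0.22 (SE 0.05, adjusted p = 0.0183). JAK1, a kinase bound to these receptors, gave 0.00 (adjusted p = 0.975). Of the 9 measured genes of receptors and kinases 2 rose, 1 fell and 6 did not pass, with a median log2 change of 0.01.

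Sensors and adaptors of interferon induction mostly did not pass, as 1 of 17 rose, 1 fell and 15 did not. The gene that rose was TICAM1, the adaptor of TLR3 (0.21, SE 0.05, adjusted p = 0.0324), and the one that fell was RNF135, a ubiquitin ligase that activates RIG-I (-0.18, SE 0.04, adjusted p = 0.0245), whose other probe set was positive. RIGI itself, the sensor of short double-stranded RNA, gave 0.07 (adjusted p = 0.532). Of 16 negative regulators 3 rose and 1 fell, with a median of -0.02. FOXO3, a transcription factor that restrains IRF7, rose by 0.28 (SE 0.04, adjusted p = 0.00588), TRIM24 by 0.25 (adjusted p = 0.0381) and the phosphatase gene PTPN1 by 0.15 (adjusted p = 0.0464). With an array left out PTPN1 passed in 0 of 6 fits (limma, highest adjusted p = 0.152), TRIM24 in 1 of 6 and FOXO3 in 6 of 6. SAMHD1, which degrades deoxynucleotides, fell by 0.32 (SE 0.08, adjusted p = 0.0404), with 1 of its 4 probe sets positive, and passed in 2 of 6. Both TICAM1 and RNF135 passed in 1 of 6.

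Of 39 further interferon-stimulated genes 3 rose, 0 fell and 36 did not pass (limma), and 4 had an unadjusted p under 0.05 on the lower side. GBP3, a guanylate-binding protein gene, rose by 0.38 (SE 0.04, adjusted p = 0.00136), the nuclear body gene SP100 by 0.29 (SE 0.06, adjusted p = 0.0146) and LGALS3BP, a secreted glycoprotein gene, by 0.23 (SE 0.06, adjusted p = 0.0416). The median log2 change of these 39 genes was -0.01, equal to that of all genes at this rounding. Of 17 antigen presentation genes, which type I and type II interferon induce, 2 rose and 1 fell, with a median of 0.02. The peptide transporter genes TAP1 and TAP2 rose by 0.19 (adjusted p = 0.028) and 0.18 (adjusted p = 0.0396), while B2M, the light chain of class I molecules, fell by 0.19 (SE 0.04, adjusted p = 0.0208) with 8 of 8 probe sets negative. With an array left out SP100 passed in 3 of 6 fits, B2M in 2 of 6, and LGALS3BP, TAP1 and TAP2 in 1 of 6 each. Over the 6 pathway lists 16 of 115 measured genes passed (13.9%, against 16.8% of all genes), 11 higher and 5 lower. Leaving out 1 CDKL1 shRNA array gave counts of 8, 5 and 5 for replicates 1, 2 and 3, and leaving out 1 control array gave 11, 6 and 6. Between 9.01% and 13.2% of all genes passed in these fits. IFNL1, FOXO3 and GBP3 passed in each of these 6 fits.

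**Figure D5:**
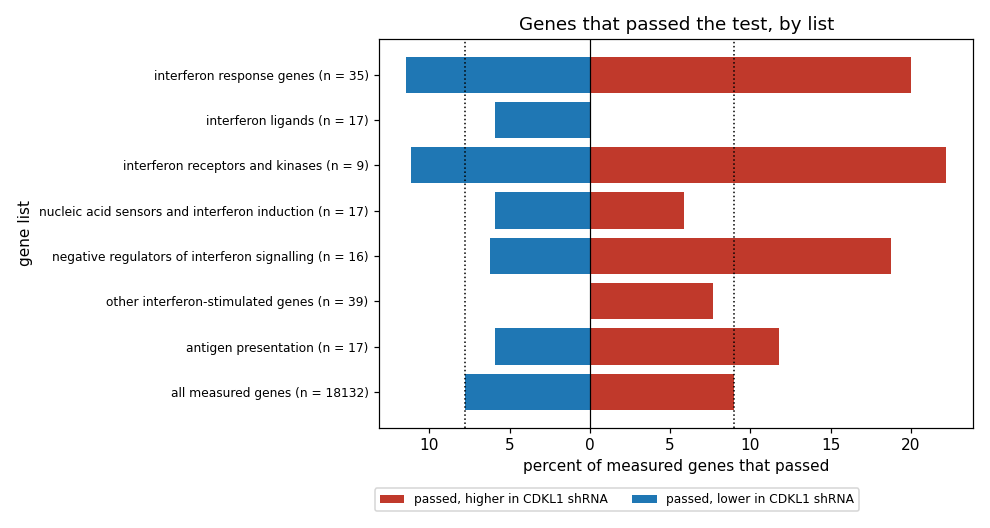
Percent of measured genes that passed (limma, adjusted p under 0.05) and were higher (red, right) or lower (blue, left) in CDKL1 shRNA arrays, for the interferon response genes, the 6 pathway lists and all measured genes. Dotted lines mark the shares over all genes, 8.97% higher and 7.79% lower. The 35 interferon response genes lie beyond both lines, and the 39 further interferon-stimulated genes hold 0 lower calls.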

How the data were processed

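Total RNA of the 6 DLD1 samples was extracted with TRIzol and 6 µg of each was made into biotin-labelled cRNA, per the labels' protocols. The deposited table holds log2 expression values for 49395 probe sets, which the authors made with RMA, per the submitters' processing notes. RMA corrects background, normalises arrays by quantiles and compresses changes of dim probe sets, and the sources used here do not give its version or settings.

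Of the probe sets, 102 were controls and stayed out of the tests, 44988 had 1 gene symbol in the platform annotation, 1832 had several and 2473 had none. Of those with 1 symbol, 44961 had an identifier in the RefSeq table of GRCh38.p14 and 0 symbols were updated. All 18132 genes were fitted with limma 3.58.1 (lmFit and eBayes) under R 4.3.3, with no covariate, two-sided tests, Benjamini-Hochberg adjustment and a threshold of 0.05, and 3040 passed. Single values were compared with exact permutation tests. The fit was tested on simulated data, with 50 changed genes at each size. It recovered 50% of the 1.25-fold, 82% of the 1.5-fold and 96% of the 2-fold changes. The simulation changed far fewer genes than the 3040 that passed here, which affects the adjusted p, so these rates need not hold for the data. Genes that did not pass may include changes of the smaller sizes. Tables and figures used Python 3.11.15, pandas 2.3.3 and matplotlib 3.10.9. No column was left unused.

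The members, the pathway lists and the marker lists were chosen with earlier results of these data known. All measured members are named, with every passing gene of a pathway list, or the 4 with the smallest adjusted p, and some non-passing genes chosen after their values were seen. The submitters call the samples independent without saying what was repeated, so a p-value covers the variation among these 6 arrays, which may be technical. Their small number limits the precision. Alternatives were a replicate block, each array left out in turn, quantile normalisation once more, array medians subtracted, averaged probe sets, a filter on dim genes, the ACTB 3′ excess as a covariate, a trended prior, any passing probe set, all background controls and a longer motif.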

Additional observations from a re-analysis of the deposited data

How the results depend on the processing

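The counts of members did not leave 10 or 11 under a further quantile normalisation, subtraction of array medians, averaged probe sets, a filter on dim genes, a trended prior or counting any passing probe set. The fit with the replicate number as a block called 1803 genes (1024 higher, 779 lower), 8 members of which 2 were lower, and 3 pathway genes. The numbers gave no pairing, as the same-numbered samples' deviations correlated at -0.03, -0.12 and 0.07. With 1 array left out, in fits that held fewer arrays, 1633 to 2399 genes passed, 895 to 1314 higher and 738 to 1085 lower. Members passing were 7 to 9, with 5 to 7 higher and 2 to 3 lower, and pathway genes were 5 to 11. The member median was -0.0028 to 0.0499, negative without CDKL1 shRNA replicate 2, and the log2 change of CDKL1 was -0.29 to -0.12, passing without control replicate 3 (adjusted p = 0.0489). The ACTB difference was 0.132 to 0.239. With the ACTB covariate limma called 219 genes, 109 higher and 110 lower, and 1 member, which was higher. In that fit 0 members were lower and 0 pathway genes passed, with 7 members higher and 7 lower, and 5 pathway genes higher and 10 lower, at an unadjusted p under 0.05, and the member median was -0.0721, against -0.0531 for all genes. A trended prior called 27 pathway genes. Only 1 member lay above the brightest background control. RSAD2 turned to 0.0593 with its probe sets averaged. The cause of these shifts was not tested. No detection calls were used, so levels near the background limit what the dim genes can show.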
